A study of Homo sapiens with 8 samples.

Results

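RAB GTPases are the largest branch of the RAS-like small GTPases. In the RNA-seq count table analysed here they were taken as the protein-coding genes of GENCODE 44 whose symbol is RAB followed by a number and at most 1 letter, a rule that uses no expression value. It found 63 of the 58302 genes in the table, of which 53 had at least 1 count in 1 library or more and 25 had enough counts to be tested.

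Each RAB cycles between a GDP-bound form, held in the cytosol by a GDP dissociation inhibitor, and a GTP-bound form on a membrane, where it recruits effectors such as tethers, motor adaptors and kinases. Guanine nucleotide exchange factors switch a RAB on, GTPase-activating proteins switch it off, and a lipid anchor added by geranylgeranyl transferase keeps it on its membrane. Different RABs mark different compartments, so that RAB1 is known for transport from the endoplasmic reticulum (ER) to the Golgi, RAB5 for early endosomes, RAB7 for late endosomes, RAB11 for recycling endosomes, and RAB3, RAB8, RAB10 and RAB27 for vesicles that fuse with the plasma membrane. In airway and alveolar epithelium these routes carry secretory granules, surface receptors and junction proteins.

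The libraries came from A549, a human lung adenocarcinoma cell line, 72 h after transfection with an siRNA against APE1 (siAPEX1, 4 libraries) or a scramble siRNA (siCTRL, 4 libraries). APE1, encoded by APEX1, is an endonuclease of base excision repair with a further redox function, and the study asked which RNAs change when it is silenced. The silencing was transient and in 1 cell line. The kit is made for small RNA and its fragments were selected to include longer transcripts.

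APEX1 itself had 51, 61, 64 and 47 counts in siCTRL and 21150, 19470, 27916 and 20767 counts in siAPEX1. The rise is opposite to what silencing of the mRNA would give. In a kit made for small RNA, counts per gene do not tell APEX1 mRNA from other RNA of its sequence, the siRNA included. What these counts come from was not tested, so they do not show whether APEX1 was silenced. Every direction below follows the labels of the libraries and not a measured loss of APEX1. Total counts lay between 1639796 and 1949886 in siCTRL and between 1348386 and 1619500 in siAPEX1, and the 2 ranges did not overlap. Protein-coding genes of the nucleus, APEX1 aside, took 14.99% to 15.7% of the counts in siCTRL and 12.0% to 12.7% in siAPEX1. Of 13 genes that mark A549 cells or epithelium none was at 0 in all libraries, and their summed level was 1806 to 2023 CPM (counts scaled to a common library size) in siCTRL and 1540 to 1664 in siAPEX1. Of the 12 tested, 6 were lower in siAPEX1, keratins KRT7, KRT8, KRT18 and KRT19 among them, and 3 were higher. Among 8 markers of blood, endothelial, stromal and liver cells CD3E and PECAM1 were at 0 throughout, and all 8 summed to 3.32 to 8.66 CPM in siCTRL and to 1.55 to 4.77 CPM in siAPEX1. Depth, the coding share and these markers moved with the groups, and their part in the results was not tested. In bulk RNA, fewer cells that express a gene and less RNA of it per cell cannot be told apart.

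The RAB genes together had 913 to 1022 counts per library in siCTRL and 538 to 611 in siAPEX1, so most single genes rested on few counts. A floor of 3 counts was equal to 1.36 to 1.62 CPM in siCTRL and 2.12 to 2.42 CPM in siAPEX1, and it covers counting error only. Between 46 and 48 RAB genes were detected in each siCTRL library and between 44 and 45 in each siAPEX1 library. The 3 with the most counts, RAB10, RAB2A and RAB1A, held 27.2% of the RAB counts of a library on average, and the 10 with the most held 58.1%. Divided by exon length, the highest means over both groups were those of RAB10 (12.1 CPM per kb), RAB1A (11.8 CPM per kb), RAB5C (7.42 CPM per kb), RAB2A (7.18 CPM per kb) and RAB11A (6.68 CPM per kb). RAB10 serves polarized exocytosis, RAB1A and RAB2A the early secretory pathway, RAB5C early endosomes and RAB11A recycling endosomes. In siCTRL alone RAB1A stood above RAB10, at 11.8 against 9.23 CPM per kb.

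Of the 63 genes, 10 had 0 counts in all 8 libraries. They were RAB17 and RAB25, which serve recycling in polarized epithelia, and RAB3C, RAB6C, RAB6D, RAB7B, RAB19, RAB40A, RAB41 and RAB44. A count of 0 in these libraries allows a level of up to 1.36 to 2.42 CPM per library and does not show that a gene is silent.

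Compared with siCTRL, 7 RAB genes were lower in the libraries labelled siAPEX1 and 3 were higher (adjusted p at or under 0.05), and 15 of the 25 tested did not pass. With library size alone in place of TMM factors, which lowers the median of all genes to −0.34, 15 were lower and 2 higher. Under TMM, the lower ones were RAB34, RAB15, RAB3D, RAB5B, RAB13, RAB31 and RAB27B, and the higher ones RAB8B, RAB12 and RAB10. The 7 lower genes were 28% of those tested, against 15.8% of all 5368 genes tested, and the 3 higher were 12%, against 15.9%. Of the 4870 protein-coding genes tested, 15.9% were lower and 12.5% higher, so the share of higher RAB genes was near this background. With a log2 fold change of at least 1 as well, 4 RAB genes were lower, where 5.68% of all genes were, and 1 was higher, where 3.6% of all genes were. All siAPEX1 libraries lay below all siCTRL libraries in CPM for 6 RAB genes, the background being 14.9% of all genes, and above them for 3, the background being 14%. The median log2 fold change of the 25 was −0.33, beside −0.03 over the 4870 protein-coding genes tested and −0.00 over all genes tested. The RAB median was −0.16 without siCTRL 1, −0.21 without siAPEX1 1 and −0.0774 without siAPEX1 4. These fits tested 25, 29 and 30 RAB genes in turn, so the medians without a siAPEX1 library are over larger sets of genes. A gene could pass the filter through its level in 1 group alone. RAB34, RAB15, RAB3D, RAB5B and RAB13 would not have passed without siCTRL, nor RAB12 and RAB8B without siAPEX1. These shares therefore describe the genes tested and not the family.

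**Figure D1:**
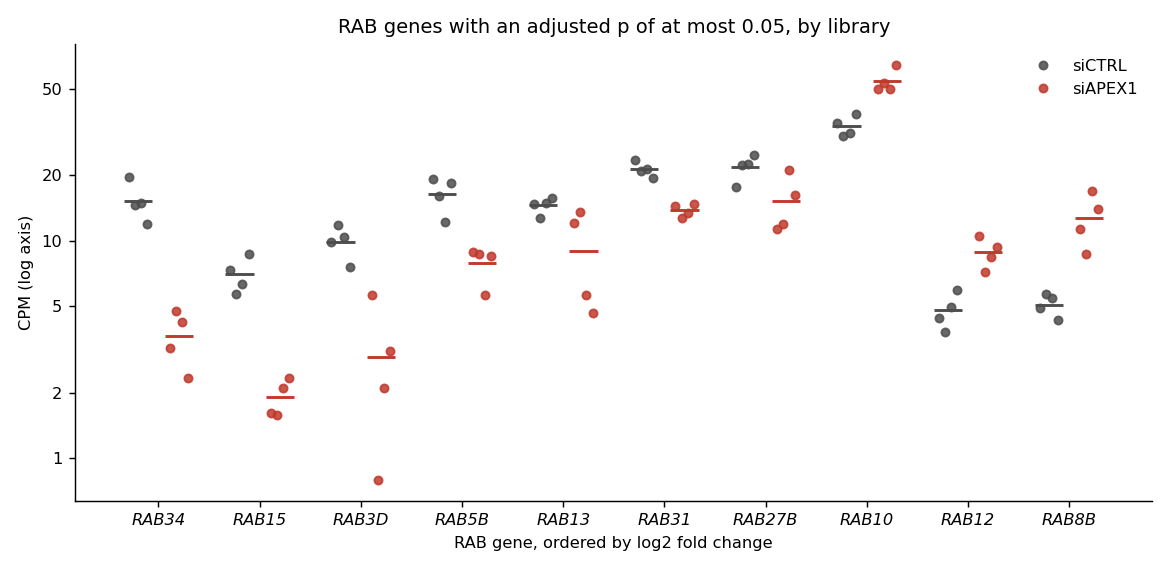
CPM on a log axis (y) of the 10 RAB genes called at an adjusted p of 0.05 (x, ordered by log2 fold change), with 1 point per library, 4 siCTRL and 4 siAPEX1, and a bar at each group mean. The groups are apart for 8 of them and overlap for RAB13 and RAB27B.

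The gene with the largest fall was RAB34 (ENSG00000109113, GRCh38 chr17:28714281-28718429, minus strand), a Golgi RAB known for the positioning of lysosomes, for macropinocytosis and for the primary cilium. It had 40, 31, 33 and 22 counts in siCTRL and 4, 6, 6 and 3 in siAPEX1. No siAPEX1 library reached the lowest siCTRL library. In CPM this was 15.3 ± 3.22 (SD, n = 4) against 3.64 ± 1.08, a log2 fold change of −2.05 (SE 0.299, adjusted p = 5.53e-07). None of its exon bases is shared with another GENCODE 44 gene.

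RAB34 was the 1 gene of 5 tested among the 19 of the ER to Golgi and Golgi list that passed. This was 20% lower, beside 15.8% of all genes tested. The most abundant ones for their length stood at nearly the same CPM in both groups with TMM factors, and with library size alone RAB1A (log2 fold change −0.35, adjusted p = 0.0391) and RAB2A (−0.38, adjusted p = 0.0188) passed as lower. RAB1A, which acts with tethers between ER and Golgi, had 89, 74, 86 and 72 counts in siCTRL and 57, 48, 50 and 47 in siAPEX1, and with the smaller libraries taken into account its log2 fold change was −0.01 (95% interval −0.28 to 0.26). RAB2A, of the same step, changed by −0.05 (−0.32 to 0.22). RAB18, found on the ER and on lipid droplets, gave 0.10 (−0.43 to 0.63), and RAB6A, of transport within the Golgi and back to the ER, −0.33 (−0.83 to 0.17). RAB1A shares 22.9% of its exon bases with genes of the opposite strand, and whether strand was used in the counting is not given in the sources used here. The median of the 5 was −0.05, and RAB1B, RAB2B and RAB30, which had 22 counts or fewer in every library, were not tested.

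Of the 7 tested RABs of exocytosis and regulated secretion, 3 were called lower and 2 higher. These were 42.9% and 28.6%, beside 15.8% and 15.9% of all genes tested. RAB3D (ENSG00000105514, chr19:11322068-11346270, minus strand), a RAB of secretory granules in exocrine and lung cells, had 20, 25, 23 and 14 counts in siCTRL and 7, 1, 3 and 4 in siAPEX1. The groups did not overlap, and CPM fell from 9.92 ± 1.77 to 2.91 ± 2.05 (log2 fold change −1.77, SE 0.361, adjusted p = 1.52e-04). Its exons overlap others on the opposite strand over 24.0% of their bases.

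RAB27B (ENSG00000041353, chr18:54717860-54895516, plus strand), which docks secretory granules and multivesicular bodies at the plasma membrane, had 36, 47, 50 and 46 counts in siCTRL and 14, 15, 30 and 21 in siAPEX1. In CPM these groups overlapped, at 21.9 ± 3.02 and 15.2 ± 4.58, and the log2 fold change of −0.51 (SE 0.199) had an adjusted p of 0.0473. The call was lost without any single library other than siCTRL 1 and siAPEX1 3, the adjusted p being 0.0758 without siCTRL 2, 0.0915 without siCTRL 3, 0.111 without siCTRL 4, 0.209 without siAPEX1 1, 0.188 without siAPEX1 2 and 0.0865 without siAPEX1 4. DESeq2 gave 0.160. The paralog RAB27A had 2 to 6 counts per library and was not tested.

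RAB13 (ENSG00000143545, chr1:153981617-153986358, minus strand), known for tight junctions of epithelial cells, had 30, 27, 33 and 29 counts in siCTRL and 15, 17, 8 and 6 in siAPEX1. Its CPM of 14.5 ± 1.24 and 8.97 ± 4.47 overlapped between groups, since the siAPEX1 libraries were far apart, and the log2 fold change was −0.71 (SE 0.256, adjusted p = 0.0297). Without siAPEX1 3 the adjusted p was 0.176, without siAPEX1 4 it was 0.186, without siCTRL 3 it was 0.0578, without siCTRL 4 it was 0.0565, and with DESeq2 it was 0.113. A gene of the same strand covers 24.8% of its exon bases. How reads of these bases were counted is not known, as the annotation release is not given.

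RAB8B (ENSG00000166128, chr15:63189560-63267776, plus strand) and RAB10 (ENSG00000084733, chr2:26034084-26137454, plus strand), which with RAB8A guide vesicles to the plasma membrane and cilium, were higher. RAB8B had 10, 12, 12 and 8 counts in siCTRL and 14, 11, 24 and 18 in siAPEX1. The counts overlapped, but the CPM did not, at 5.09 ± 0.600 against 12.7 ± 3.52 (log2 fold change 1.32, SE 0.274, adjusted p = 2.05e-04). RAB10, which was below RAB2A, RAB1A and RAB11A in mean CPM in siCTRL and above them in siAPEX1, had 71, 64, 69 and 71 counts in siCTRL and 62, 67, 71 and 83 in siAPEX1. Its summed counts were nearly equal, 275 and 283, so its rise is one relative to the size of the library, whereas those of RAB8B went from 42 to 67. RAB10 had CPM of 33.7 ± 3.71 and 54.4 ± 6.88, which did not overlap (log2 fold change 0.69, SE 0.131, adjusted p = 4.75e-05). With library size alone in place of TMM factors its log2 fold change was 0.36. RAB8A, with 17, 21, 21 and 19 counts in siCTRL and 11, 14, 10 and 4 in siAPEX1, gave −0.34 (95% interval −0.91 to 0.23, adjusted p = 0.389), and RAB3B, a granule RAB, gave −0.61 (−1.32 to 0.10, adjusted p = 0.195).

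Early endosome RABs held 2 lower genes and no higher one among 6 tested (33.3% lower, beside 15.8% of all genes tested). RAB5B (ENSG00000111540, chr12:55973913-55996683, plus strand), 1 of 3 RAB5 paralogs that drive the fusion of early endosomes, had 39, 34, 27 and 34 counts in siCTRL and 11, 11, 8 and 11 in siAPEX1. The groups stood apart, with CPM of 16.5 ± 3.12 and 7.95 ± 1.54 (log2 fold change −1.05, SE 0.244, adjusted p = 8.00e-04). RAB31 (ENSG00000168461, chr18:9708275-9862551, plus strand), which acts between the trans-Golgi network and endosomes, had 48, 44, 47 and 36 counts in siCTRL and 18, 16, 19 and 19 in siAPEX1. It also did not overlap in CPM, at 21.3 ± 1.71 and 13.8 ± 0.958 (log2 fold change −0.62, SE 0.189, adjusted p = 0.00946), and DESeq2 put its adjusted p at 0.0716.

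The other RAB5 paralogs did not pass. RAB5A had 41, 24, 45 and 28 counts in siCTRL and 22, 20, 24 and 22 in siAPEX1 (log2 fold change 0.01, 95% interval −0.41 to 0.42). RAB5C had 46, 34, 46 and 35 in siCTRL and 32, 20, 30 and 29 in siAPEX1 (0.12, −0.25 to 0.49), and shares 28.8% of its exon bases with a gene of the same strand. RAB21 and RAB22A, also of early endosomes, gave −0.40 (−0.99 to 0.19) and 0.22 (−0.38 to 0.82), the former with siAPEX1 libraries of 4, 6, 12 and 14 counts.

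Within a library, the ratio of 2 paralogs does not depend on the scaling between libraries. The log2 ratio of RAB5A to RAB5B was 0.01 ± 0.533 in siCTRL and 1.07 ± 0.308 in siAPEX1, and that of RAB5B to RAB5C was −0.26 ± 0.348 and −1.38 ± 0.419. Neither overlapped between the groups, whereas that of RAB5A to RAB5C was −0.25 ± 0.199 and −0.31 ± 0.225 and did. The ratio of RAB8A to RAB8B fell from 0.87 ± 0.216 to −0.82 ± 1.04, without overlap, so that RAB8A had more counts than RAB8B in each siCTRL library and in 1 of the siAPEX1 libraries. These 3 changes of 1.07, −1.13 and −1.69 had a two-sided exact permutation p of 0.0286 each, the smallest that 4 against 4 libraries allow, and 0.0572 after adjustment over the 6 pairs compared, which does not pass 0.05. For RAB3B to RAB3D the change was 0.97 (exact p = 0.0571, adjusted 0.0856) and for RAB11A to RAB11B −0.32 (exact p = 0.229, adjusted 0.275). The pairs were added after the data were seen, and RAB5B, RAB3D and RAB8B had already passed the test across genes, so their ratios are not separate evidence. RAB8A shares 39.7% of its exon bases with a gene of the opposite strand and 4.2% with a gene of the same strand. Whether strand was used in the counting is not given.

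**Figure D2:**
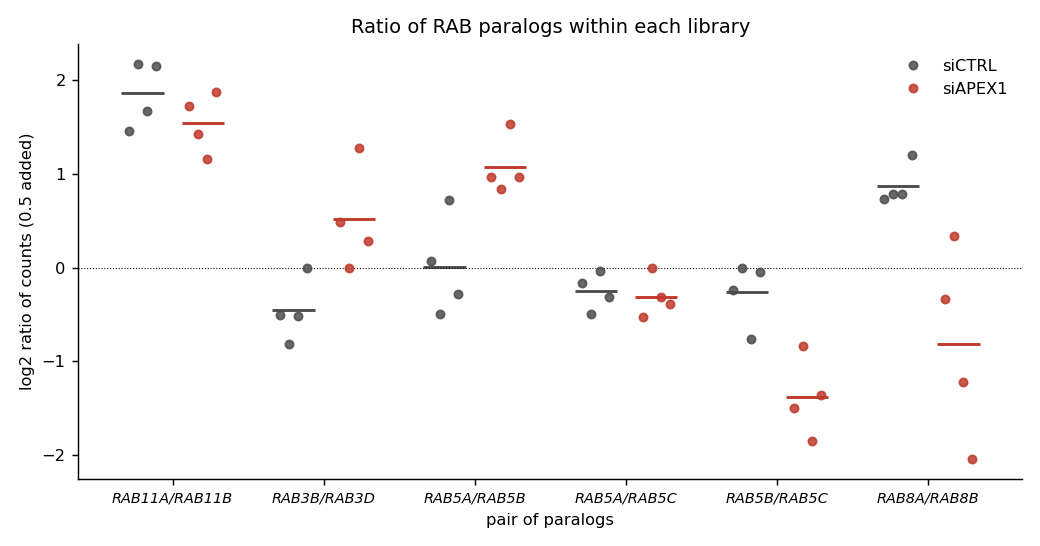
Log2 ratio of the counts of 2 RAB paralogs within each library, 0.5 added to each count (y), for 6 pairs (x), 1 point per library in siCTRL and siAPEX1 and a bar at each group mean. RAB5A/RAB5B, RAB5B/RAB5C and RAB8A/RAB8B separate the groups, and RAB5A/RAB5C overlaps.

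The promoters of the RAB5 and RAB8 paralogs are shown because RAB5B and RAB8B were called and RAB5A, RAB5C and RAB8A were not. They are the 250 bases before the RefSeq start of each gene (GRCh38.p14, strand of the gene), with capitals at the letters of a GC box (GGGCGG), of a CCAAT box and of an E-box (CACGTG) on either strand. RAB5A lies at chr3:19946847-19947096 (plus strand), RAB5B at chr12:55973699-55973948 (plus strand), RAB5C at chr17:42154990-42155239 (minus strand), RAB8A at chr19:16111639-16111888 (plus strand) and RAB8B at chr15:63189356-63189605 (plus strand).
RAB5A: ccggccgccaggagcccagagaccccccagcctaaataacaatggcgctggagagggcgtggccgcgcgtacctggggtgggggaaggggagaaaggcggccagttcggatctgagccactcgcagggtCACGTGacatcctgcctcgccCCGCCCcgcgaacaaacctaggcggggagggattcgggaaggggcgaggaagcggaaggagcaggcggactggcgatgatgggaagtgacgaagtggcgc
RAB5B: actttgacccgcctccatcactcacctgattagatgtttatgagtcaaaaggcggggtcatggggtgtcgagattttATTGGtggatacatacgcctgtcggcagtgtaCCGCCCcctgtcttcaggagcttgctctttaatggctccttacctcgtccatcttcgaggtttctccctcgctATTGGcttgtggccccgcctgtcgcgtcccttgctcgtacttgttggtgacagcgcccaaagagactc
RAB5C: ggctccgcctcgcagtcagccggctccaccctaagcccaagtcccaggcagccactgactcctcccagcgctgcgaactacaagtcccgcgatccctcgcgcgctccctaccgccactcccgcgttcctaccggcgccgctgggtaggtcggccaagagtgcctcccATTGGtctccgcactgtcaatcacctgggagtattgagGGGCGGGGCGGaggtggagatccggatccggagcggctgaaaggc
RAB8A: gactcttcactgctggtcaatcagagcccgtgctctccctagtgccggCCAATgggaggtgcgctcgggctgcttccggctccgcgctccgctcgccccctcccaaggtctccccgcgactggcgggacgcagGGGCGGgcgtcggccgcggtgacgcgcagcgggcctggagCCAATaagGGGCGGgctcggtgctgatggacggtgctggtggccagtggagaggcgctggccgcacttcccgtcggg
RAB8B: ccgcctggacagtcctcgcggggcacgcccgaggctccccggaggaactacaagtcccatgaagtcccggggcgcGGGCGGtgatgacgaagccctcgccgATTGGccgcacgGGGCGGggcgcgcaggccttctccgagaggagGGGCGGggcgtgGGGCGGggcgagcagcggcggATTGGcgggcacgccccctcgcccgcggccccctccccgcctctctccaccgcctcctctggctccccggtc

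Each of the 5 windows held GGGCGG, once in RAB5A and RAB5B, at 2 places in RAB5C and RAB8A and at 4 in RAB8B. CCAAT stood in all but RAB5A, and CACGTG in RAB5A alone. RAB5B, the lower of the RAB5 genes, had the lowest GC content of the 5 at 54.0%, and RAB8B, the higher RAB8 gene, the highest at 77.2%. Over the 6 lower RAB genes with a window, GC content ran from 50.4% to 82.0%. It ran from 71.2% to 77.2% over the 2 higher ones and from 45.2% to 80.8% over the 13 not called. These ranges overlapped. RefSeq windows were found for 50 of the 63 RAB genes. GGGCGG was in 78.0% of them and in 42.3% of the 27305 windows of all genes, CCAAT in 26.0% and 33.0%, CACGTG in 5 of the 50 and in 6.49% of all, TGACGTCA in 2.0% and 1.77%, and TATAAA in 8.0% and 11.1%. The median GC content was 64.8% for RAB genes and 58.0% for all genes. Of the lower genes with a window 5 of 6 held GGGCGG, of the higher ones 2 of 2, and of those tested and not called 11 of 13, so this motif was common to the 3 classes. A match of letters is not a bound site.

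Of the recycling RABs, 1 of 4 tested was lower (25%, beside 15.8% of all genes tested). RAB15 (ENSG00000139998, chr14:64945814-64973226, minus strand), which slows recycling from early and recycling endosomes, had 15, 12, 14 and 16 counts in siCTRL and 2, 2, 3 and 3 in siAPEX1. Every siAPEX1 library was at or under 3 counts and below every siCTRL library. Over the summed counts of 10 and 57, scaled for library size, the ratio of siAPEX1 to siCTRL was 0.276 (95% exact interval 0.126 to 0.546, counting error only), and the adjusted p was 4.66e-04. RAB11A, the main recycling RAB, had 72, 83, 84 and 77 counts in siCTRL and 44, 49, 52 and 49 in siAPEX1, and its log2 fold change was −0.05 (95% interval −0.32 to 0.22), or −0.38 with library size alone (adjusted p = 0.0185). RAB11B gave 0.28 (−0.20 to 0.75), and RAB4A, of rapid recycling, −0.43 (−1.10 to 0.24). RAB14, RAB35 and RAB4B had at most 16 counts in any library and were not tested.

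In late endosomes and lysosomes 1 of 3 tested genes was higher (33.3%, beside 15.9% of all genes tested). This was RAB12 (ENSG00000206418, chr18:8609437-8639383, plus strand), which directs receptors from recycling endosomes to lysosomes, with 9, 8, 11 and 11 counts in siCTRL and 13, 9, 12 and 12 in siAPEX1. The CPM of 4.79 ± 0.918 and 8.85 ± 1.401 did not overlap (log2 fold change 0.88, SE 0.298, adjusted p = 0.0198), while the counts did. Its adjusted p was 0.0652 without siCTRL 2, 0.0675 without siAPEX1 1, 0.0932 with DESeq2, 0.131 when all genes with a count were tested and 0.140 with library size alone. RAB7A, the RAB of fusion between late endosomes and lysosomes, had 45, 41, 43 and 40 counts in siCTRL and 12, 23, 20 and 23 in siAPEX1. All of its siAPEX1 libraries were below all siCTRL libraries in CPM, at 14.98 ± 4.01 against 20.7 ± 1.42, but the log2 fold change of −0.46 (SE 0.196) had an adjusted p of 0.0696 (0.0251 when only genes with 10 counts in each library were tested, and 8.55e-04 with library size alone). RAB29, of the trans-Golgi network and lysosomes, gave 0.14 (95% interval −0.39 to 0.67).

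**Figure D3:**
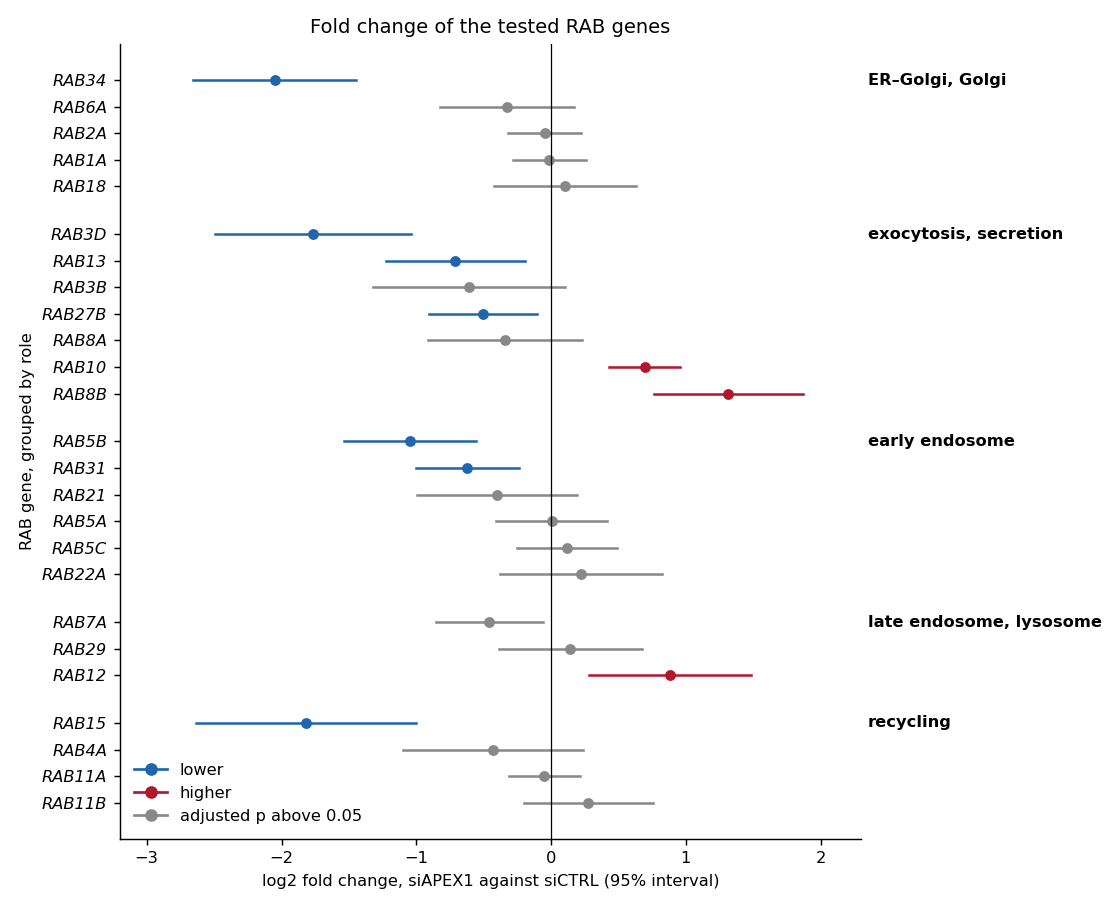
Log2 fold change of siAPEX1 against siCTRL (x) with its 95% interval for the 25 tested RAB genes (y, grouped by role), the called genes coloured by direction. The calls run from −2.05 for RAB34 to 1.32 for RAB8B. Higher calls lie in exocytosis (RAB8B and RAB10) and late endosomes (RAB12) alone, and late endosomes hold no lower call. RAB1A, RAB2A, RAB11A, RAB5A and RAB5C lie near 0 with the TMM factors used, the first 3 being called lower with library size alone.

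Put together by route, 4 of 12 tested secretory genes (ER, Golgi and exocytosis) were lower and 2 higher (median log2 fold change −0.34), and 2 of 9 tested endosomal genes (early and late) were lower and 1 higher (median 0.01). In all genes tested 15.8% were lower and 15.9% higher, and of these routes 33.3% and 22.2% were lower and 16.7% and 11.1% higher. Of the protein-coding genes tested, 15.9% were lower and 12.5% higher. RAB34, RAB3D, RAB13 and RAB5B would not have been tested without siCTRL, nor RAB8B and RAB12 without siAPEX1. The shares by route therefore describe the genes tested and not the routes. The difference between the routes was not tested. All 63 genes, with no filter on low counts, summed to 450.9 to 502.6 CPM in siCTRL and to 427.4 to 444.6 CPM in siAPEX1. The groups did not overlap, and the mean of 434 ± 7.42 was 0.908 times that of siCTRL, 478 ± 24.4, a difference of −43.8 CPM (two-sided exact permutation p = 0.0286, the smallest possible). Without siAPEX1 1 the exact p was 0.0571, and without siAPEX1 2, siAPEX1 3 or siAPEX1 4 it was 0.114. The difference was −150.5 CPM with library size alone. As a share of the nuclear protein-coding counts without APEX1, RAB genes took 0.349% ± 0.0157 in siCTRL and 0.316% ± 0.00544 in siAPEX1 (exact permutation p = 0.0286), a measure added after the data were seen.

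By role, the early endosome RABs summed to 91.2 ± 7.14 CPM in siCTRL and 76.1 ± 2.97 CPM in siAPEX1, with no overlap (exact permutation p = 0.0286, adjusted over 6 roles 0.114). The ER and Golgi RABs summed to 140 ± 15.3 and 120 ± 9.42 CPM (exact p = 0.0571, adjusted 0.114), and the recycling RABs to 81.0 ± 5.18 and 73.1 ± 6.08 CPM (exact p = 0.0571, adjusted 0.114). For exocytosis the sums were 109 ± 6.07 and 111 ± 4.23 CPM (exact p = 0.543), where the higher RAB10 and RAB8B stood beside the lower RAB3D, RAB13 and RAB27B. None of the 6 roles passed after adjustment.

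**Figure D4:**
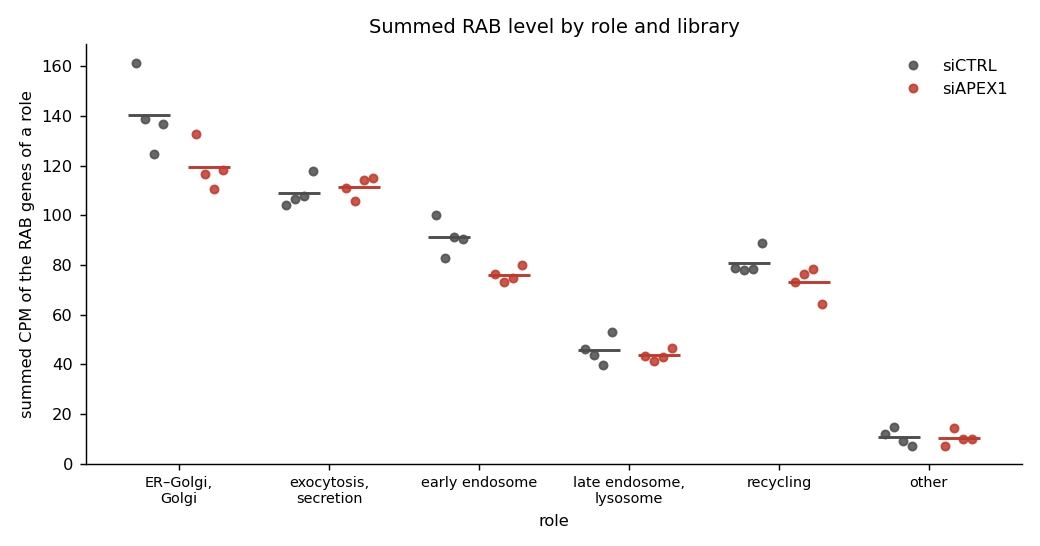
Summed CPM of the RAB genes of each role (y) for the 6 roles (x), 1 point per library, siCTRL and siAPEX1, with the group mean as a bar. The early endosome sums are apart (82.9 to 100.3 CPM in siCTRL, 73.1 to 80.0 CPM in siAPEX1), and the exocytosis sums overlap.

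The other 38 RAB genes had too few counts to be tested, and 19 of them, the 10 at 0 included, had no more than 3 counts in any library. When all genes with at least 1 count were tested, RAB40C and RAB37 passed in addition, both close to the floor. RAB40C, a RAB with a SOCS box that joins a ubiquitin ligase, had 0, 0, 1 and 1 counts in siCTRL and 3, 3, 3 and 4 in siAPEX1, a ratio scaled for library size of 10.2 with an exact 95% interval from 2.32 to 93.4 (adjusted p = 0.0129). RAB37, of secretory granules, had 1, 2, 4 and 3 counts in siCTRL and 0 in each siAPEX1 library (adjusted p = 0.0488), and no fold is given at this depth. RAB23, known from Hedgehog signalling, had 9, 9, 3 and 4 counts in siCTRL and 1, 2, 1 and 1 in siAPEX1, and RAB26, of secretory granules, 6, 7, 8 and 5 and 1, 2, 1 and 2. In CPM the groups of RAB23 overlapped and those of RAB26 did not, and the adjusted p was 0.0876 and 0.126. RAB1B, the second RAB1, had 22, 9, 16 and 9 counts in siCTRL and 2, 11, 5 and 5 in siAPEX1, with 43.8% of its exon bases under genes of the opposite strand.

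Of 117 regulators and effectors of RABs in the table, 51 were tested, 6 were higher and 3 lower, and their median log2 fold change was 0.10. These were 11.8% and 5.88% of those tested, beside 15.9% and 15.8% of all genes tested and 12.5% and 15.9% of the protein-coding ones. GDP dissociation inhibitors and prenylation factors had 2 of 5 tested lower and none higher, and all 5 log2 fold changes were negative, with a median of −0.57. RABAC1, a membrane protein that takes RABs from their dissociation inhibitor, had 90, 94, 106 and 93 counts in siCTRL and 19, 30, 24 and 28 in siAPEX1. It was far lower in every siAPEX1 library (46.8 ± 2.93 and 19.5 ± 4.004 CPM, log2 fold change −1.26, SE 0.154, adjusted p = 1.16e-08). GDI2, the dissociation inhibitor found in most tissues, had 109, 104, 109 and 101 counts in siCTRL and 47, 40, 57 and 37 in siAPEX1, also without overlap in CPM (log2 fold change −0.57, SE 0.132, adjusted p = 7.39e-04).

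Among exchange factors 2 of 11 tested were higher, SBF2 (log2 fold change 0.69, adjusted p = 0.00621) and DENND4C (0.56, adjusted p = 0.0370), the latter an exchange factor of RAB10, and none was lower. This share of 18.2% was near the 15.9% of all genes. TRAPPC1, a subunit of the TRAPP complexes that act on RAB1 and among the most abundant here, gave −0.50 (adjusted p = 0.0591). Of 14 GTPase-activating proteins TBC1D5, which acts on RAB7, was higher (0.73, adjusted p = 0.00183), and RAB3GAP2, a subunit of the RAB3 GTPase-activating complex, gave 0.31 (adjusted p = 0.327). Of 21 effectors 3 were higher, namely the golgin GCC2 (0.94, adjusted p = 8.14e-07), the exocyst subunit EXOC5 (1.06, adjusted p = 0.00301) and the dynein adaptor BICD2 (0.78, adjusted p = 0.0494). The exocyst subunit EXOC6 was lower (−0.78, adjusted p = 0.0410). These were 14.3% and 4.76% of the effectors tested. BICD2 had 8, 12, 13 and 7 counts in siCTRL and 13, 12, 7 and 12 in siAPEX1, and its groups overlapped in CPM. EXOC5 would not have passed the filter without siAPEX1, nor EXOC6 without siCTRL. The shares of effectors called therefore describe those tested. The alternatives of scaling, filter and libraries were followed for RAB genes only. The most abundant effector, the golgin GOLGB1, was at −0.07 (adjusted p = 0.705).

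For comparison, 2 of 15 tested ARF and SAR genes were higher and 2 lower (median log2 fold change 0.00), and of 7 tested RAS genes 2 were higher and 1 lower (median 0.08). The RAB median was −0.33, and −0.0774 without siAPEX1 4, where 30 RAB genes were tested, and the difference between families was not tested.

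**Figure D5:**
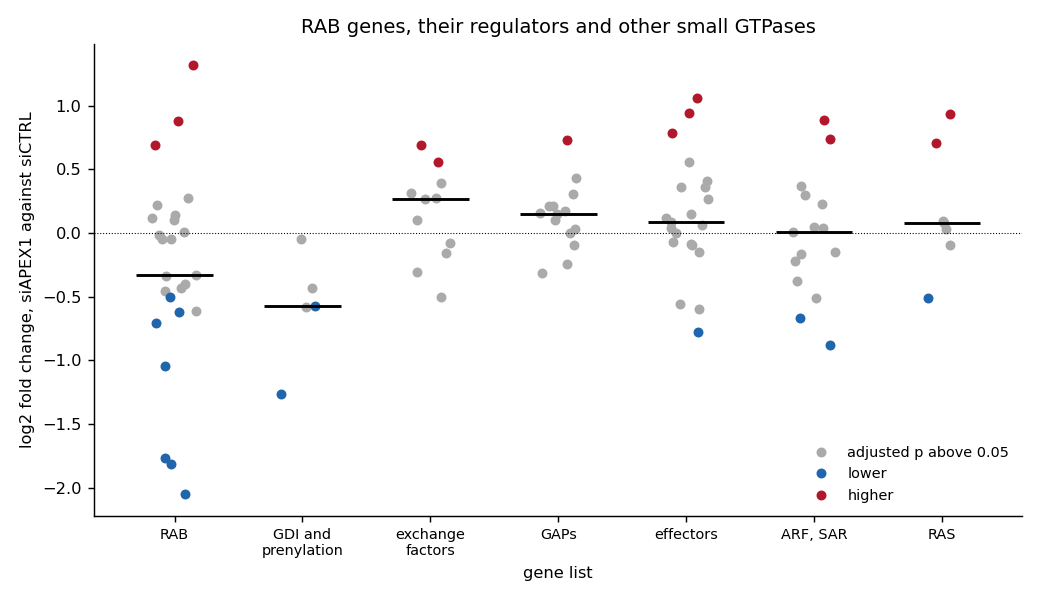
Log2 fold change of siAPEX1 against siCTRL (y) for each tested gene of the RAB family, the 4 groups of RAB regulators and effectors and the ARF and SAR and the RAS families (x), called genes coloured, with the median of each list as a bar. The medians run from −0.57 for the dissociation inhibitors and prenylation factors and −0.33 for RAB genes to 0.27 for exchange factors.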

How the data were processed

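RNA from A549 cells was sequenced with a SMARTer smRNA-Seq kit (single-end reads). The authors trimmed the reads with cutadapt, aligned them to GRCh38 with STAR 2.5.3a and deposited raw counts per gene from its GeneCounts function. The strand setting and the annotation release are not given in the sources used here. The labels gave each library's group and replicate number. The study calls the replicates biological, but the sources used here do not say that they were separate cultures, so p-values measure the spread between these libraries, which may be technical. Identifiers were matched to GENCODE 44 (57532 of 58302 rows, the other 770 tested without a class). Locations are those of GENCODE 44 on GRCh38.

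Genes were tested with edgeR 4.0.16 in R 4.3.3 (TMM factors, quasi-likelihood test, filterByExpr at min.count 10 and min.total.count 15, Benjamini-Hochberg adjustment over 5368 genes). CPM are counts scaled by the TMM library size. Log2 fold changes are siAPEX1 against siCTRL, taken from the fit at its default prior count. The standard error is the log2 fold change over the square root of F. A prior count of 2 was used for the log2 CPM behind the correlations of same-numbered libraries. A gene was called at an adjusted p of at most 0.05. A value summed per library was tested by exact permutation (70 labelings, two-sided). Roles, regulators, families and markers were lists written by hand, and the members and lists were chosen with earlier results of these data known. Named genes were each called RAB gene, the most abundant per length and the most changed of each role, their paralogs, and the called and the 2 most abundant regulators of each list. The programs were tested on simulated counts. Alternatives were other scalings, other filters, DESeq2 1.42.0, a replicate block and each library left out. Promoter windows were the 250 bases before each RefSeq gene start (first start listed).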

Additional observations from a re-analysis of the deposited data

Results flagged for a closer look

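RAB5B in the siAPEX1 libraries was the 1 group of 4 libraries, of 52 examined over the tested RAB genes and the summed levels, in which 1 library stood far from the rest. The gap between siAPEX1 3 (5.64 CPM) and the nearest of the other siAPEX1 libraries (8.55 to 8.86 CPM) was 0.903 of the whole range, above Dixon's 95% critical value for 4 samples. About 1 in 20 such groups passes by chance. All 4 libraries, siAPEX1 3 included, were below the siCTRL libraries.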

How the results depend on the processing

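RAB34, RAB15, RAB3D, RAB5B, RAB8B and RAB10 kept their direction and their adjusted p at or under 0.05 under each alternative that tested them, though RAB10 lay under a log2 fold change of 1, while RAB12, RAB13, RAB27B and RAB31 lost theirs under some. The number of lower RAB genes, 7, was 15 with library size alone, 4 with DESeq2, 3 with a filter of 10 counts in each library and 4 with a log2 fold change of at least 1 as well, and the number of higher ones, 3, was 1 under the last 2 of these. The filter of 10 counts removes genes that fell to few counts and tests 11 RAB genes in place of 25. The median log2 fold change of −0.33 was −0.66 with library size alone, where that of all genes was −0.34, and was −0.29 with TMM factors from protein-coding genes alone, −0.39 with all genes of at least 1 count and −0.13 with 10 counts in each library. The difference of the summed RAB level, −43.8 CPM, was −32.1 CPM with TMM factors from protein-coding genes alone (exact permutation p = 0.0571) and −150.5 CPM with library size alone. With 1 library left out it lay between −51.9 and −34.0 CPM, the number of lower genes between 5 and 7, that of higher genes between 2 and 3, and the median between −0.33 and −0.0774, the last without siAPEX1 4. The fits with 1 library left out tested 25 to 30 RAB genes, and that of all genes with at least 1 count tested 53. Their medians and numbers of called genes are thus over changed sets of genes. Where a cause is not in the construction of the alternative, the cause was not tested.

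With a replicate block 3 genes were higher and 6 lower, RAB13 being lost (adjusted p = 0.0569), and the median was −0.33. The correlations of same-numbered libraries, from −0.0373 to −0.00348, do not show that the numbers pair them.

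Uncalled genes near 0 changed sign. With library size alone the log2 fold changes became −0.23 for RAB18, −0.22 for RAB5C, −0.19 for RAB29, −0.11 for RAB22A, −0.33 for RAB5A and −0.0585 for RAB11B, and RAB1A (−0.35, adjusted p = 0.0391), RAB2A (−0.38, adjusted p = 0.0188) and RAB11A (−0.38, adjusted p = 0.0185) passed as lower. RAB5A was −0.00147 with upper-quartile factors, −0.0883 with all genes of at least 1 count and −0.0802 with 10 counts in each library, and RAB1A was 0.0245 with TMM factors from protein-coding genes alone. With 1 library left out RAB11A ran from −0.0893 to 0.000103, RAB18 from −0.21 to 0.35, RAB1A from −0.0709 to 0.0653, RAB22A from −0.0662 to 0.38, RAB2A from −0.11 to 0.0265 and RAB5A from −0.15 to 0.12. The counts limited precision, the 95% interval running from −0.28 to 0.26 for RAB1A, among the most abundant, and from −1.32 to 0.10 for RAB3B, among the rarest tested.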
